A study of Schmidtea mediterranea with 24 samples.

Results

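The 6 transcripts described here act inside the cell in the WNT/beta-catenin pathway of the planarian *Schmidtea mediterranea*. They are *dvl-b* (SmedASXL_006350), *APC* (a merged entry that holds SmedASXL_000490), *axin2* (SmedASXL_015468), *Bcat-1* (SmedASXL_006667), *beta-catenin-like* (SmedASXL_012031) and the WNT target *Sp5* (SmedASXL_006379). They were picked by these numbers out of the 82669 transcripts of the count table, with earlier results of these data known. The table itself names *dvl-b*, *APC* and *Bcat-1*, and the study's gene lists pair *beta-catenin-like* and *Sp5* with their numbers. Those lists name *axin2* without a number, so its pairing with SmedASXL_015468 rests on the choice of members and could not be checked, and each *axin2* value below is that of this transcript. The study kept *axin2*, *beta-catenin-like* and *Sp5* on its lists for their changes in these same libraries, so the direction of all 3 is not independent evidence here.

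RNA was sequenced from asexual CIW4 animals, a clonal strain, fed double-stranded RNA 3 times for *control(RNAi)* or *yki(RNAi)* and all irradiated with 60 Gy, a dose used to remove dividing stem cells. The 8 groups of 3 libraries, replicates A, B and C, were *control(RNAi)* and *yki(RNAi)* intact animals and tails cut off 24 h after irradiation and sampled 6, 12 or 24 h later, written below as hours post amputation (hpa). All groups were also kept in high salt, and the labels place irradiation 15 days after feeding. Each library pooled more than 8 whole animals or 15 tail fragments, so an intact library holds every body region and a tail library the posterior one. Amputation, body region and hours since irradiation therefore cannot be told apart between tails and intact animals. Between tails of different times, hours since amputation and hours since irradiation cannot be told apart either. *yki* encodes the transcriptional co-activator of the Hippo pathway, and the question asked of these genes was how far their RNA differed with *yki(RNAi)* and after amputation.

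Without a WNT signal, a destruction complex built on the scaffolds Axin and APC marks beta-catenin for breakdown. A WNT ligand bound to a Frizzled receptor recruits Dishevelled, which disables the complex, and beta-catenin then enters the nucleus, where it works with TCF factors on target genes. In planarians WNT ligands are made mainly in posterior muscle, and beta-catenin activity is needed for tails while its loss gives heads. The pathway is set largely by the stability of beta-catenin protein, which counts of RNA do not measure. In vertebrates *Axin2* and *Sp5* are transcribed in response to the pathway, *Axin2* as negative feedback on it.

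Library totals ranged from 11021767 to 23601139 counts, with the fewest in an intact library. The *yki* transcript lay between 88.7 and 119.7 CPM (read counts scaled to the size of the library) in the 12 *control(RNAi)* libraries and between 12.5 and 18.9 CPM in the 12 *yki(RNAi)* libraries, so each library matched its label. Of the head markers, *ndk* lay at 22.9 to 29.0 CPM in intact animals and 2.36 to 7.95 CPM in tails. *ndk-3*, *ndk-4* and *sfrp-1* were also lower in every tail library than in any intact one. *Cintillo* was at 0 in every tail library but at only 0.0748 to 0.161 CPM in intact animals, too low to tell. *ovo*, also low, overlapped, at 0.219 to 0.419 CPM in intact animals and 0 to 0.279 CPM in tails. A set of 60 transcripts nearly absent from tails, picked after the data were seen, kept 14.9% and 8.14% of its intact level in *control(RNAi)* tails C and B at 6 hpa, 9.41% in *yki(RNAi)* tails B at 6 hpa and 10.3% in *yki(RNAi)* tails B at 24 hpa, against 0.744% to 5.28% in the other tail libraries. These 4 libraries stood apart from the other tails in this measure, and results are given without each of them where that changed a call.

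In whole tissue, fewer cells of a type and less RNA per cell cannot be told apart. CPM below were scaled with TMM factors over all 24 libraries. They are compared between groups for 1 gene, never between genes, since transcript lengths are not used here. Calls needed both an adjusted p below 0.05, from the quasi-likelihood test in edgeR, and a minimum size, which was a 25% higher level of the higher group for *yki(RNAi)* against *control(RNAi)* and for consecutive times, and 2-fold for tails against intact animals.

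*axin2*, *beta-catenin-like* and *Sp5* were higher after *yki(RNAi)* in intact animals and in tails at 6, 12 and 24 hpa. *dvl-b*, *APC* and *Bcat-1* were called in none of the 4 states. The called 3 made up 3 of 5 tested members in intact animals and at 6 hpa, where *APC* had too few reads to be tested, and 3 of 6 at 12 and 24 hpa. Among all transcripts tested, 1.68% were called higher in intact animals, 2.25% at 6 hpa, 9.57% at 12 hpa and 1.35% at 24 hpa. The members' median log2 fold changes were 0.59, 0.37, 0.32 and 0.34 in these 4 states, beside -0.01, 0.02, 0.01 and 0.00 over all transcripts tested.

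**Figure D1:**
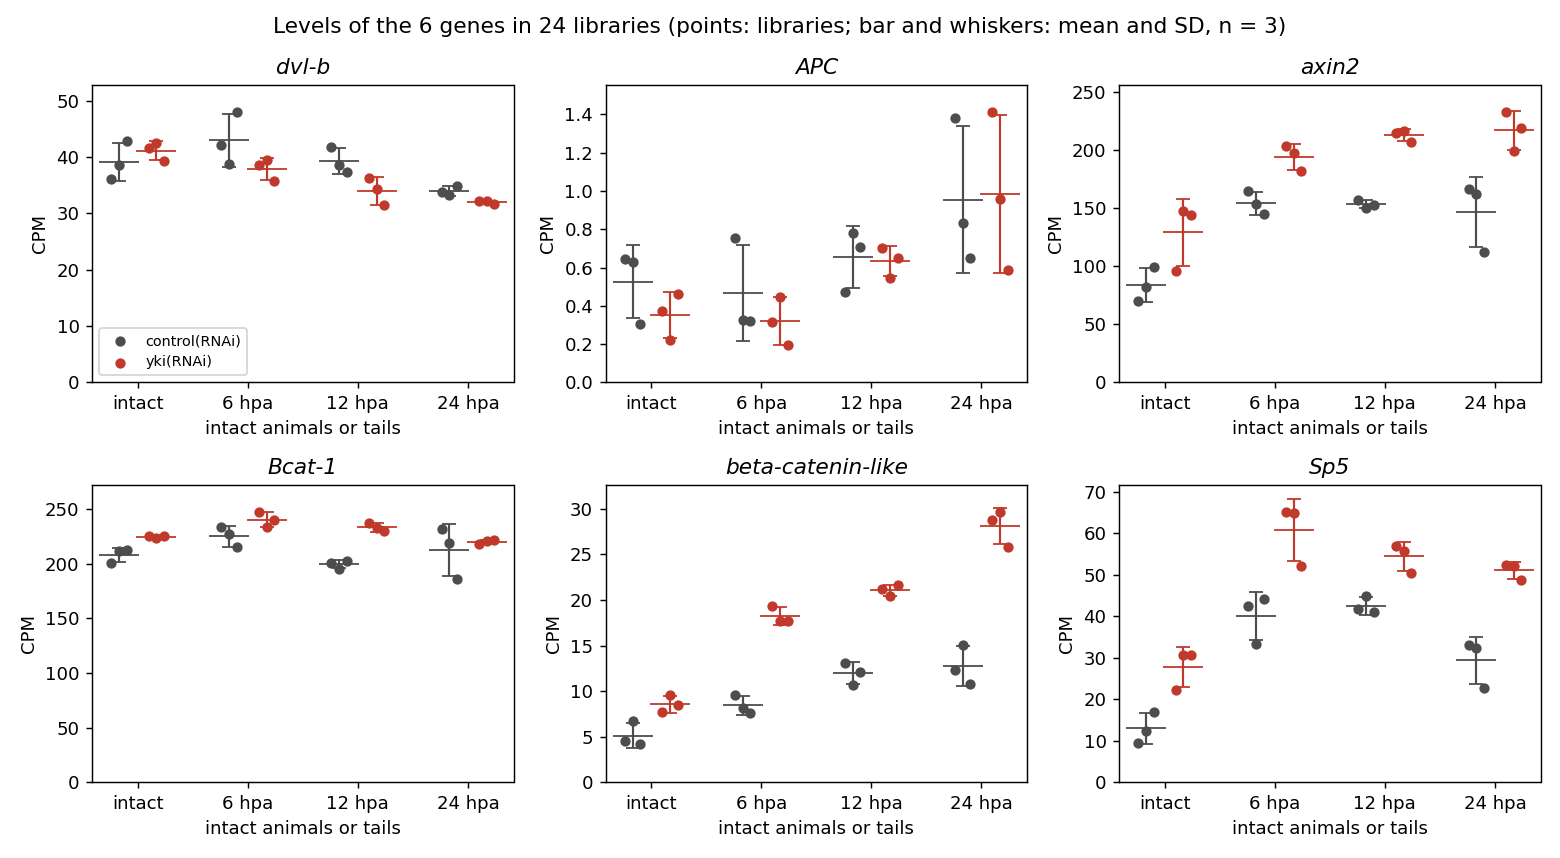
Level of each of the 6 genes in CPM (linear axes from 0) in intact animals and in tails at 6, 12 and 24 hpa, with *control(RNAi)* in grey and *yki(RNAi)* in red; points are libraries, bars and whiskers the mean and SD of 3. For *axin2*, *beta-catenin-like* and *Sp5* all 9 *yki(RNAi)* tail libraries stand above all 9 *control(RNAi)* tail libraries. For *dvl-b*, *APC* and *Bcat-1* the ranges of these tail libraries overlap, although *dvl-b* and *Bcat-1* are apart at 12 hpa. *dvl-b* is also apart at 24 hpa.

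*dvl-b*, a Dishevelled that relays the receptor's signal, stayed within a narrow span. Over the 24 libraries it ranged from 31.4 CPM in *yki(RNAi)* tails C at 12 hpa to 48.0 CPM in *control(RNAi)* tails C at 6 hpa, a range of 1.53 times. In *control(RNAi)* it had 39.2 ± 3.37 CPM (SD, n = 3) in intact animals and 43.0 ± 4.69, 39.3 ± 2.30 and 33.95 ± 0.848 CPM in tails at 6, 12 and 24 hpa. In *yki(RNAi)* the same order gave 41.2 ± 1.71, 37.9 ± 1.98, 34.0 ± 2.44 and 32.0 ± 0.249 CPM. The mean was thus lowest at 24 hpa under either RNAi. At 12 hpa the *yki(RNAi)* libraries, at 36.3, 34.3 and 31.4 CPM, lay below the *control(RNAi)* libraries at 41.9, 38.7 and 37.4 CPM. That log2 fold change of -0.18 (SE 0.060) had an adjusted p of 0.0312 from edgeR but was a 0.882-fold difference, short of the minimum size of 25%. In the other 3 states the log2 fold changes lay between -0.14 and 0.03, with edgeR adjusted p between 0.382 and 0.880, although the *yki(RNAi)* libraries also lay below those of *control(RNAi)* at 24 hpa.

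*APC*, the other scaffold of the destruction complex, was at the limit of detection. Its entry drew between 4 reads, in *yki(RNAi)* tails C at 6 hpa, and 26 reads, in *yki(RNAi)* tails A at 24 hpa. The group means were 0.526 ± 0.190 and 0.354 ± 0.120 CPM in *control(RNAi)* and *yki(RNAi)* intact animals, and 0.955 ± 0.381 and 0.986 ± 0.413 CPM in tails at 24 hpa. Every pair of groups next to each other in the order of means overlapped. With *yki(RNAi)* it differed by -0.01 (SE 0.304) on the log2 scale at 12 hpa and by 0.07 (SE 0.373) at 24 hpa, with neither called and the libraries overlapping.

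*axin2* codes for the Axin scaffold of the same complex. In intact animals it stood at 69.9, 82.4 and 99.2 CPM in *control(RNAi)* replicates A, B and C, and at 96.3, 148 and 144 CPM in *yki(RNAi)*. *yki(RNAi)* replicate A lay just below *control(RNAi)* replicate C, and the other *yki(RNAi)* libraries lay above all 3. The log2 fold change was 0.59 (SE 0.147, 1.51-fold), with an edgeR adjusted p of 0.0441.

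In tails at 6 hpa, *axin2* had 204, 198 and 182 CPM after *yki(RNAi)*, against 165, 153 and 145 CPM after *control(RNAi)*. At 12 hpa it had 215, 217 and 207 CPM after *yki(RNAi)*, against 157, 151 and 153 CPM. At 24 hpa the *yki(RNAi)* values were 233, 199 and 219 CPM, against 166, 162 and 112 CPM. At each time every *yki(RNAi)* library was above every *control(RNAi)* library, and over all times the highest *control(RNAi)* tail library (166 CPM) lay below the lowest *yki(RNAi)* one (182 CPM). The log2 fold changes were 0.37 (SE 0.076, 1.29-fold) at 6 hpa, 0.50 (SE 0.041, 1.41-fold) at 12 hpa and 0.59 (SE 0.129, 1.51-fold) at 24 hpa, with edgeR adjusted p of 0.0161, 5.71e-08 and 0.0365.

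The call of *axin2* at 12 hpa was kept under all 13 alternatives, and those in the other states were not. In intact animals it was lost without *control(RNAi)* A or B or *yki(RNAi)* B or C (edgeR adjusted p from 0.109 to 0.24, log2 fold changes from 0.48 to 0.57) and with the first sequencing lane alone (0.0655). At 6 hpa it was lost without *control(RNAi)* C, which brought the difference to 1.24-fold, without *yki(RNAi)* A or B (edgeR adjusted p = 0.0642 and 0.111), and with all 24 libraries in 1 fit (0.123). At 24 hpa it was lost without *control(RNAi)* B or without *yki(RNAi)* A, B or C (edgeR adjusted p from 0.0623 to 0.128), with log2 fold changes between 0.54 and 0.67.

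*Bcat-1* codes for planarian beta-catenin, the effector that the complex degrades, and was the steadiest member by range: 186 to 248 CPM over all 24 libraries, 1.33 times from lowest to highest. *control(RNAi)* means were 208 ± 6.67 CPM (SD, n = 3) in intact animals and 225 ± 9.58, 199.8 ± 3.90 and 212 ± 23.7 CPM in tails at 6, 12 and 24 hpa. *yki(RNAi)* means were 225 ± 1.41, 240.5 ± 7.19, 233 ± 4.12 and 220.3 ± 1.60 CPM. Each *yki(RNAi)* mean was above its *control(RNAi)* mean, by 0.07 (SE 0.077), 0.13 (SE 0.070), 0.25 (SE 0.040) and 0.08 (SE 0.072) on the log2 scale. At 12 hpa the *yki(RNAi)* libraries (238, 232.5 and 229.7 CPM) lay above the *control(RNAi)* libraries (201, 195 and 203 CPM), with an edgeR adjusted p of 0.000136 and a 1.19-fold difference, under the minimum size of 25%. In the other 3 states the edgeR adjusted p lay between 0.360 and 0.662, with libraries that overlapped at 6 and 24 hpa and not in intact animals.

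*beta-catenin-like* is named for its similarity to beta-catenin, and no function is given for it in the sources used here. In intact animals it had 4.50, 6.71 and 4.16 CPM in *control(RNAi)* A, B and C, and 7.71, 9.55 and 8.42 CPM in *yki(RNAi)*. The groups did not overlap, and the log2 fold change was 0.73 (SE 0.183, 1.66-fold), with an edgeR adjusted p of 0.0464. That call was lost without *control(RNAi)* A or C or any single *yki(RNAi)* library (edgeR adjusted p from 0.0631 to 0.247, log2 fold changes from 0.53 to 0.79), and with the first lane alone (0.102).

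In tails, *beta-catenin-like* had the largest differences of the 6 genes between *yki(RNAi)* and *control(RNAi)* at each of the 3 times. At 6 hpa the *control(RNAi)* libraries held 9.58, 8.14 and 7.55 CPM and the *yki(RNAi)* libraries 19.4, 17.7 and 17.6 CPM. At 12 hpa they held 13.1, 10.7 and 12.1 CPM and 21.2, 20.4 and 21.6 CPM. Every *yki(RNAi)* library was above every *control(RNAi)* library, here as at 24 hpa, where *yki(RNAi)* gave 28.8, 29.7 and 25.9 CPM against 12.3, 15.1 and 10.8 CPM. The log2 fold changes were 1.15 (SE 0.107, 2.22-fold), 0.83 (SE 0.076, 1.78-fold) and 1.17 (SE 0.116, 2.25-fold), with edgeR adjusted p of 0.000259, 2.08e-07 and 0.00207. These 3 calls were kept under each of the 13 alternatives run on each comparison.

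*Sp5* is a zinc finger transcription factor. In intact animals it had 9.57, 12.4 and 16.9 CPM in *control(RNAi)* A, B and C, and 22.3, 30.6 and 30.7 CPM in *yki(RNAi)*. The lowest *yki(RNAi)* library was above the highest *control(RNAi)* library, and within each RNAi replicate A was the lowest, as it was for *axin2*. The log2 fold change of 1.05 (SE 0.167, 2.08-fold), with an edgeR adjusted p of 0.00391, was the largest of the 6 genes in intact animals, and the call was kept under all 13 alternatives.

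In *control(RNAi)* tails *Sp5* had 42.4, 33.3 and 44.1 CPM at 6 hpa, 41.7, 45.0 and 40.9 CPM at 12 hpa and 33.0, 32.3 and 22.8 CPM at 24 hpa. In *yki(RNAi)* tails it had 65.1, 64.8 and 52.2 CPM, then 57.0, 55.7 and 50.4 CPM, and then 52.4, 52.1 and 48.6 CPM. The *yki(RNAi)* libraries were above the *control(RNAi)* libraries at each time, and the lowest of the 9 (48.6 CPM) was above the highest *control(RNAi)* tail library (45.0 CPM). The log2 fold changes were 0.64 (SE 0.106, 1.56-fold), 0.38 (SE 0.056, 1.304-fold) and 0.83 (SE 0.118, 1.78-fold), with edgeR adjusted p of 0.00556, 5.07e-05 and 0.00622. At 12 hpa the call was lost with all 24 libraries in 1 fit (edgeR adjusted p = 0.0749). The 12 hpa fit had the lowest spread between replicates, with a biological coefficient of variation of 5.26% against 10.8%, 11% and 13% in intact animals and at 6 and 24 hpa.

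**Figure D2:**
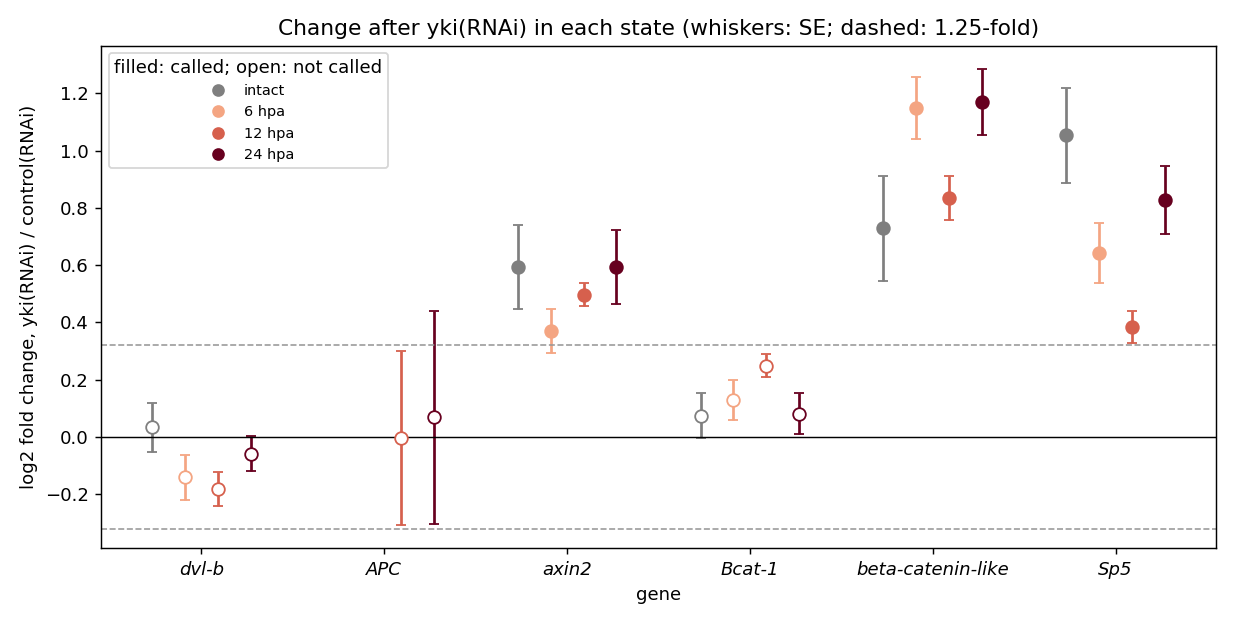
Log2 fold change of *yki(RNAi)* over *control(RNAi)* (whiskers: SE from edgeR, 3 libraries per group) for each gene in intact animals and in tails at 6, 12 and 24 hpa; filled points were called, dashed lines mark the minimum size of 25%, and *APC* was not tested in intact animals and at 6 hpa. The 12 points of *axin2*, *beta-catenin-like* and *Sp5* lie above the upper dashed line, and those of *dvl-b*, *APC* and *Bcat-1* between the lines.

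The next comparison set tails against intact animals under the same RNAi. In *control(RNAi)* tails, *Sp5* was higher at all 3 times, *beta-catenin-like* at 12 and 24 hpa, and no member was called lower. That was 1 of 6 members at 6 hpa, where 0.707% of transcripts were called higher, 2 of 6 at 12 hpa (1.3%) and 2 of 6 at 24 hpa (1.64%). The 3 times share the same 3 intact libraries, and the study listed both *Sp5* and *beta-catenin-like* as wound-induced from these libraries, so the direction of neither is independent evidence here. The study also followed both transcripts by in situ hybridization over a regeneration time course, and classed *beta-catenin-like* as tail-enriched by published data.

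*Sp5* was 2.85-fold, 3.06-fold and 2.16-fold higher in *control(RNAi)* tails at 6, 12 and 24 hpa than in intact animals, or 1.51 (SE 0.158), 1.61 (SE 0.135) and 1.11 (SE 0.177) on the log2 scale, and edgeR adjusted p of 7.93e-05, 4.71e-06 and 0.00184. The smallest, at 24 hpa, fell to 1.95-fold without intact replicate A. *beta-catenin-like* was 1.56-fold higher at 6 hpa (edgeR adjusted p = 0.0599), and 2.26-fold and 2.42-fold higher at 12 and 24 hpa, with log2 fold changes of 1.18 (SE 0.1699) and 1.27 (SE 0.197) and edgeR adjusted p of 0.000457 and 0.00147. Without intact replicate C, the lowest of the intact libraries, the 12 hpa value fell to 1.99-fold. *axin2* was 1.73-fold, 1.74-fold and 1.69-fold higher, every tail library being above every intact library, with edgeR adjusted p of 0.000754, 9.03e-05 and 0.00523 but short of the 2-fold minimum at each time. *Bcat-1* and *dvl-b* differed by 0.836-fold to 1.02-fold, with edgeR adjusted p from 0.0707 to 0.921, and *APC* reached 1.84-fold at 24 hpa with an edgeR adjusted p of 0.211.

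In *yki(RNAi)* tails, *beta-catenin-like* was called higher than in *yki(RNAi)* intact animals at all 3 times and *Sp5* at 6 hpa. These were 2 of 5 tested members at 6 hpa, with 0.484% of transcripts called higher, 1 of 6 at 12 hpa (3.23%) and, with *APC*, 2 of 6 at 24 hpa (6.18%). *beta-catenin-like* was 2.06-fold, 2.45-fold and 3.26-fold higher, or 1.05 (SE 0.098), 1.29 (SE 0.090) and 1.71 (SE 0.098) on the log2 scale, and edgeR adjusted p of 1.51e-05, 3.02e-08 and 1.32e-06. *Sp5* was 2.11-fold higher at 6 hpa (edgeR adjusted p = 4.71e-05) and 1.94-fold and 1.82-fold higher at 12 and 24 hpa, under the 2-fold minimum. The 6 hpa calls of both genes fell just short of 2-fold, at 1.99 and 1.94, without *yki(RNAi)* intact A, and the 12 hpa value of *Sp5* passed it, at 2.03-fold, without intact C.

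*axin2* was 1.46-fold, 1.65-fold and 1.68-fold higher in *yki(RNAi)* tails than in *yki(RNAi)* intact animals, with edgeR adjusted p of 0.0141, 0.000129 and 0.00171 and every tail library above every intact one. *dvl-b* was the member with lower levels in *yki(RNAi)* tails, at 0.831-fold at 12 hpa (edgeR adjusted p = 0.00865) and 0.780-fold at 24 hpa (0.00171), short of the 2-fold minimum, and *Bcat-1* differed by 0.982-fold to 1.04-fold. *APC* was 2.77-fold higher at 24 hpa (log2 fold change 1.47, SE 0.422, edgeR adjusted p = 0.0194), from 5, 5 and 9 reads in intact libraries to 26, 19 and 13 reads in tail libraries. The *APC* call was lost without *yki(RNAi)* intact B (edgeR adjusted p = 0.101), without *yki(RNAi)* tails A (0.0644), and by DESeq2 (adjusted p = 0.0624).

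**Figure D3:**
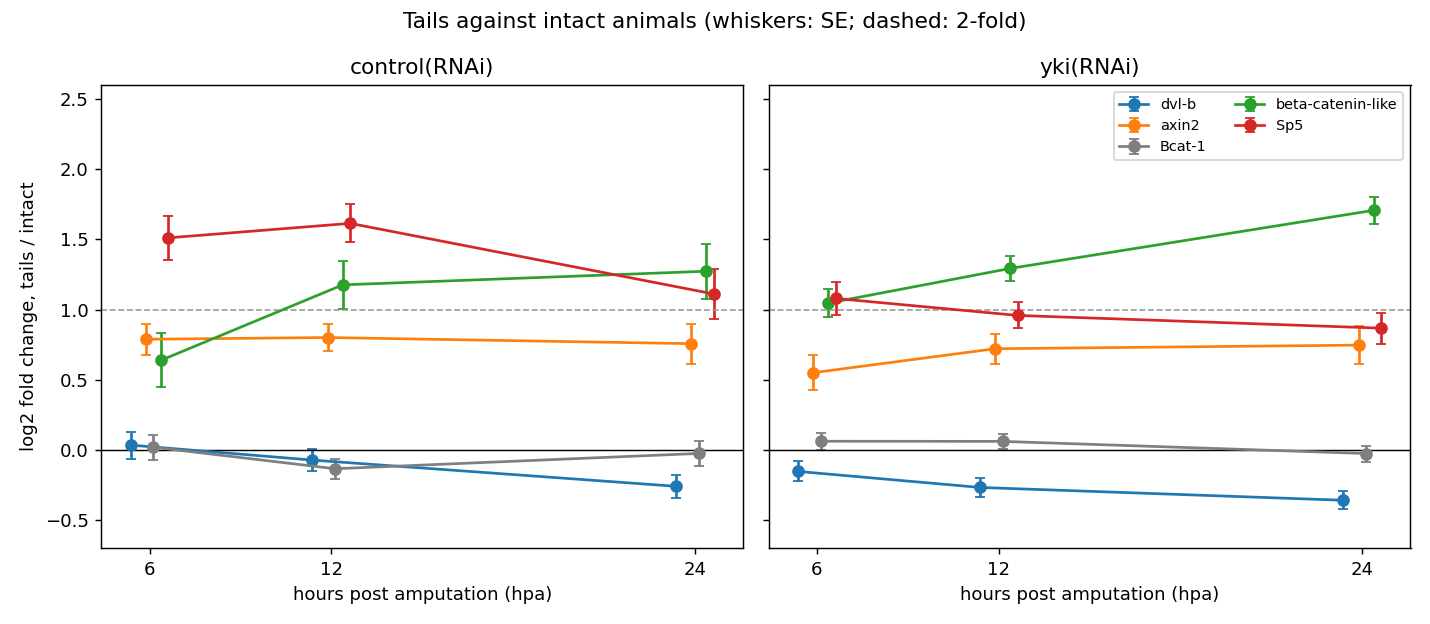
Log2 fold change of tails over intact animals of the same RNAi (whiskers: SE from edgeR, 3 libraries per group) against hours post amputation, for *control(RNAi)* on the left and *yki(RNAi)* on the right; the dashed line marks 2-fold, and *APC* is left out because of its few reads. The highest point of *Sp5* is at 12 hpa in *control(RNAi)* and at 6 hpa in *yki(RNAi)*, but its libraries at 6 and 12 hpa overlap under both. That of *beta-catenin-like* is at 24 hpa under both, with libraries that overlap those at 12 hpa in *control(RNAi)*. *Bcat-1* stays near 0.

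In the order of the 8 group means, *yki(RNAi)* intact animals stood next to *control(RNAi)* tails for each of the 3 genes that changed. *axin2* had 129.5 ± 28.8 CPM (SD, n = 3) in *yki(RNAi)* intact animals and 147 ± 30.3 CPM in *control(RNAi)* tails at 24 hpa, and *Sp5* had 27.9 ± 4.82 and 29.4 ± 5.70 CPM in the same groups. *beta-catenin-like* had 8.56 ± 0.929 CPM in *yki(RNAi)* intact animals and 8.42 ± 1.05 CPM in *control(RNAi)* tails at 6 hpa. In each of these neighbouring pairs the libraries overlapped. For *axin2* and *Sp5* the other neighbour was *control(RNAi)* intact animals, with libraries that overlapped for *axin2* and were apart for *Sp5*. *control(RNAi)* intact animals had the lowest mean of the 8 groups for all 3 genes, and the 3 highest means were those of *yki(RNAi)* tails. Within the *yki(RNAi)* tails, the order by mean was 6, 12 and 24 hpa for *axin2* and *beta-catenin-like* and the reverse for *Sp5*. Libraries of neighbouring times overlapped for *Sp5*, overlapped between 12 and 24 hpa for *axin2*, and were apart for *beta-catenin-like*.

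Whether the difference between tails and intact animals itself changed with *yki(RNAi)* was tested as an interaction on 12 libraries at each time. At 12 hpa 1 of 6 members, *Sp5*, was called lower, where 2.8% of transcripts were. Its step from intact animals to tails was smaller by 0.65 (SE 0.1801) on the log2 scale in *yki(RNAi)*, with an edgeR adjusted p of 0.0434. That call was lost with 9 of the 12 libraries left out in turn, namely *control(RNAi)* intact A or B, *yki(RNAi)* intact B or C, *control(RNAi)* tails A, B or C and *yki(RNAi)* tails B or C (edgeR adjusted p from 0.0674 to 0.115, log2 differences from -0.71 to -0.52). It was also lost with all 24 libraries in 1 fit (0.059) and with the first lane alone (0.0996).

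At 6 and 24 hpa none of the 6 members was called in the interaction by edgeR or by DESeq2, and none had an unadjusted p under 0.05. edgeR called 0 of 30471 transcripts (0%) at 6 hpa and 2 of 30863 (0.00648%) at 24 hpa, with 3045 and 2971 at an unadjusted p under 0.05, and DESeq2 called 34 and 130. For *axin2* the interaction was -0.23 (SE 0.189), -0.08 (SE 0.166) and -0.01 (SE 0.225) at 6, 12 and 24 hpa. For *beta-catenin-like* it was 0.41 (SE 0.217), 0.11 (SE 0.194) and 0.43 (SE 0.227), and for *Sp5* -0.42 (SE 0.221) at 6 hpa and -0.23 (SE 0.229) at 24 hpa. The estimates for *beta-catenin-like* were positive and those for *Sp5* negative at all 3 times, with no call but the one at 12 hpa.

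Between consecutive times in tails, 1 member moved at each step but one. In *control(RNAi)* tails *beta-catenin-like* rose from 6 to 12 hpa by 0.53 (SE 0.116, 1.45-fold, edgeR adjusted p = 0.0140), as did 3.23% of transcripts while 3.44% fell, and from 12 to 24 hpa *Sp5* fell by 0.53 on the log2 scale (SE 0.107, 0.693-fold, edgeR adjusted p = 0.006005), as did 4.83% of transcripts. In *yki(RNAi)* tails no member was called from 6 to 12 hpa, where 5.25% of transcripts were called higher and 3.39% lower; by edgeR 3 members had an unadjusted p under 0.05, and DESeq2 called 0. There *beta-catenin-like* had an edgeR adjusted p of 0.0481, with every library at 12 hpa above every library at 6 hpa, but was 1.185-fold higher, under the minimum size. From 12 to 24 hpa *beta-catenin-like* rose by 0.42 (SE 0.071, 1.34-fold, edgeR adjusted p = 0.00608), as did 2.6% of transcripts while 2.31% fell. The rise of *beta-catenin-like* in *control(RNAi)* was lost without *control(RNAi)* tails A or C at 12 hpa (edgeR adjusted p = 0.0785 and 0.0709) and with the first lane alone (0.118), and that in *yki(RNAi)* without *yki(RNAi)* tails B at 12 hpa (0.0545). The fall of *Sp5* was kept under all 12 alternatives.

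Over the same 12 hours, *Sp5* in *yki(RNAi)* tails went from 54.4 ± 3.48 to 51.0 ± 2.07 CPM (SD, n = 3), a log2 fold change of -0.09 (SE 0.063) with an edgeR adjusted p of 0.462. The difference between the 2 steps was 0.46 (SE 0.138) in an interaction of RNAi and time, with an edgeR adjusted p of 0.160, so the fall was not shown to differ between *control(RNAi)* and *yki(RNAi)*. This interaction was added after the values were seen. It called 0 of 6 members at either step, with 3 of 30484 transcripts (0.00984%) for 12 against 6 hpa and 16 of 31216 (0.0513%) for 24 against 12 hpa. At an unadjusted p under 0.05 there were 1 and 2 members and 2933 and 4291 transcripts, and DESeq2 called 0 members and 77 and 345 transcripts.

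Other genes of the pathway were followed from a list of 25: 8 WNT ligands, 4 receptors, 4 secreted inhibitors, 4 genes of WNT secretion and transport, 2 other intracellular genes and 3 posterior Hox genes. Some of these names also come from lists the study drew up on these libraries. After *yki(RNAi)*, 9 of 23 tested were higher and 0 lower in intact animals, 9 of 23 higher and 1 lower at 6 hpa, 6 of 24 higher and 3 lower at 12 hpa, and 12 of 23 higher and 0 lower at 24 hpa. All transcripts were called lower in 1.98%, 3.29%, 9.95% and 2.33% of cases in these states, against the 1.68%, 2.25%, 9.57% and 1.35% called higher. The median log2 fold changes of the list were 0.46, 0.36, 0.21 and 0.46.

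**Figure D4:**
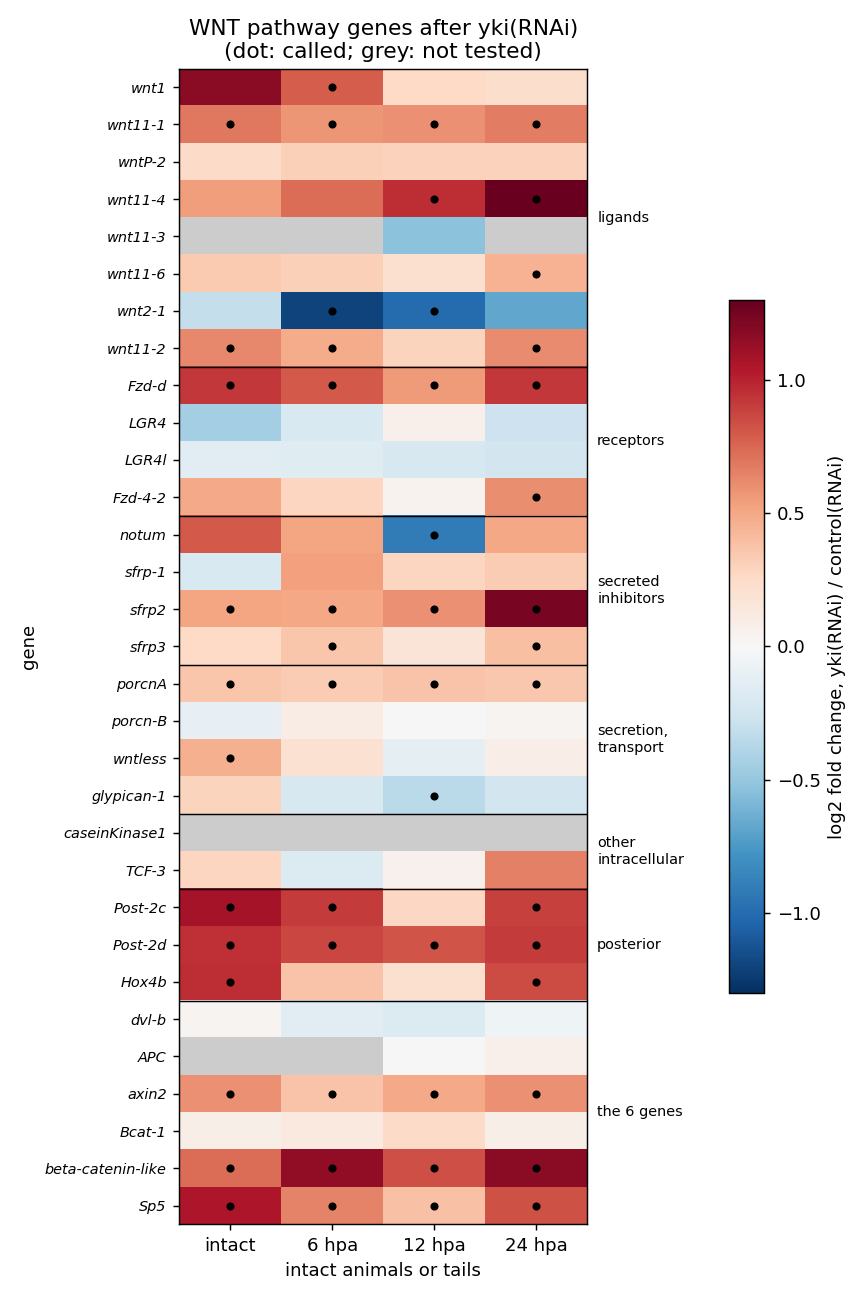
Log2 fold change of *yki(RNAi)* over *control(RNAi)* (colour) for the 25 other pathway genes, by role, and the 6 genes in the lowest block, in intact animals and in tails at 6, 12 and 24 hpa; dots mark called genes and grey cells genes not tested. The frizzled *Fzd-d*, *wnt11-1*, *porcnA*, *Post-2d* and *sfrp2* are dotted in all 4 columns like *axin2*, *beta-catenin-like* and *Sp5*, and *notum* is blue at 12 hpa alone.

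Among the ligands, 2 of 7 tested were higher in intact animals and 3, 2 and 4 at 6, 12 and 24 hpa, with 1 lower at 6 and 12 hpa. *wnt11-4* reached 3.35 ± 0.670 CPM with *yki(RNAi)* at 24 hpa, against 1.40 ± 0.287 CPM (SD, n = 3), and was 2.44-fold higher there (edgeR adjusted p = 0.0139). *wnt1*, the injury-induced posterior ligand, was 1.73-fold higher at 6 hpa (edgeR adjusted p = 0.0184), and *wnt2-1* fell there to 0.435 times its *control(RNAi)* level (edgeR adjusted p = 0.0156). Of the 4 receptors, *Fzd-d*, which binds WNT ligands, rose in every state, from 58.6 ± 5.79 to 99.2 ± 13.1 CPM at 6 hpa (1.74-fold, edgeR adjusted p = 0.00103) and by 0.92 (SE 0.081) on the log2 scale at 24 hpa. *Fzd-4-2* was the other receptor called, at 24 hpa (1.51-fold, edgeR adjusted p = 0.0119).

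The secreted inhibitors went both ways. *sfrp2*, which traps WNT ligands, was higher in every state and most so at 24 hpa, when *yki(RNAi)* tails had 10.3 ± 0.419 CPM against 4.43 ± 0.675 CPM (2.35-fold, edgeR adjusted p = 0.00218). *notum*, an enzyme that inactivates WNT proteins, was down at 12 hpa to 6.41 ± 0.935 CPM from the 12.3 ± 1.07 CPM of *control(RNAi)*, a fall to 0.533 times (edgeR adjusted p = 4.79e-06). In intact animals and at 6 and 24 hpa its difference was in the other direction and not called, at 1.74-fold, 1.43-fold and 1.42-fold (edgeR adjusted p = 0.2425, 0.1096 and 0.1861). *porcnA*, which acylates WNT proteins for secretion, was 1.26-fold to 1.29-fold higher in every state, and *glypican-1*, a carrier on the cell surface, was lower at 12 hpa (0.784-fold, edgeR adjusted p = 3.45e-05). Of the other 2 intracellular genes, *TCF-3*, the nuclear partner of beta-catenin, was called in no state and *caseinKinase1* had too few reads to be tested.

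All 3 posterior genes were higher in intact *yki(RNAi)* animals, 2 at 6 hpa, 1 at 12 hpa and 3 at 24 hpa. Of all transcripts, 1.68%, 2.25%, 9.57% and 1.35% were called higher in these states. *Post-2d* was higher in every state, by 0.82 (SE 0.063) to 0.95 (SE 0.169) on the log2 scale. *Post-2c* differed by 0.91 (SE 0.124), 0.27 (SE 0.084) and 0.88 (SE 0.096) at the 3 times and was called at the first and last, and *Hox4b* rose at 24 hpa (0.85, SE 0.088). In the interaction at 12 hpa, 5 of 24 tested pathway genes were called lower, beside the 2.8% of all transcripts, and 0 higher, beside 2.5%. Of these, *notum*, *glypican-1*, *Post-2c* and *Hox4b* are named by the rule used here, and *wntless*, a carrier needed for WNT secretion, was named after its value (-0.58, SE 0.116) was seen.

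Against intact animals of the same RNAi, 8, 10 and 9 of 23 tested pathway genes were higher in *control(RNAi)* tails at 6, 12 and 24 hpa and 3 lower at each time, and 7, 8 and 7 were higher and 3 lower at each time in *yki(RNAi)* tails. The share of all transcripts called higher was 0.707%, 1.3% and 1.64% in *control(RNAi)* and 0.484%, 3.23% and 6.18% in *yki(RNAi)*. The share called lower was 2.47%, 2.79% and 2.66% in *control(RNAi)* and 2.31%, 2.95% and 3.47% in *yki(RNAi)*. The 3 posterior genes were higher in all 6 comparisons, with median log2 fold changes from 1.13 to 1.86. Over 12 to 24 hpa in *control(RNAi)* tails, the step in which *Sp5* fell, 8 of 24 pathway genes were lower and 0 higher, with 4.83% of all transcripts called lower and 7.05% higher.

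The transcripts with the most similar levels were looked for by the correlation of the 8 group means of log2(CPM + 1), among 20352 transcripts of at least 1 CPM, of which 132 have a name. The points share libraries, normalization and the contrast of tails with intact animals, so the values are descriptions. For *Sp5* the 2 highest of all transcripts were *Post-2c* (r = 0.985 over 8 groups) and *Fzd-d* (0.984), followed among named ones by *Hox4b* (0.972). For *axin2* the nearest named transcripts were *Post-2d* (0.986), *Fzd-d* (0.975) and *Post-2c* (0.968), at places 5, 14 and 22 of all. For *beta-catenin-like* they were *activin-receptor-1* (0.957), *Post-2d* (0.948) and *wnt11-6* (0.945). The number of transcripts that reached 0.9 was 182 for *Sp5*, 229 for *axin2* and 263 for *beta-catenin-like*, between 0.894% and 1.29% of all.

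**Figure D5:**
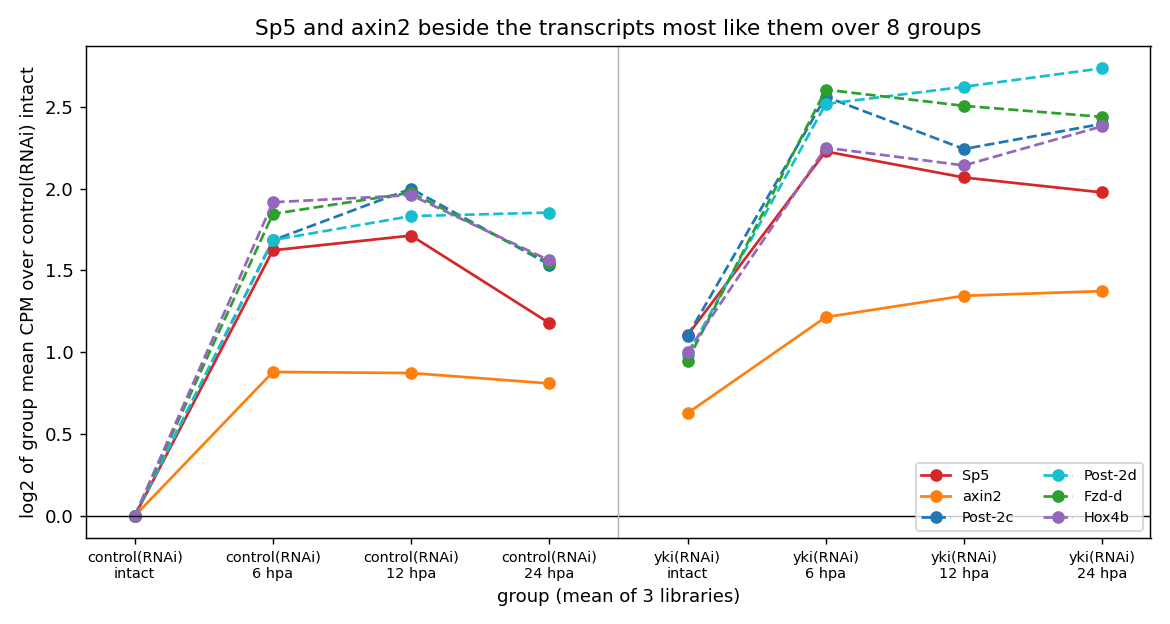
Group mean CPM (n = 3) of *Sp5*, *axin2* and the named transcripts most like them, as log2 of the ratio to *control(RNAi)* intact animals, over the 4 *control(RNAi)* groups on the left and the 4 *yki(RNAi)* groups on the right. All 6 lines step up from intact animals to tails under both RNAi, and each lies higher in *yki(RNAi)* intact animals than in *control(RNAi)* intact animals.

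Among the members themselves, the group means of *axin2* correlated with those of *Sp5* at 0.964 and of *beta-catenin-like* at 0.937, and the latter 2 at 0.844 with each other, over the same 8 groups. *dvl-b* went the other way, with -0.76 against *beta-catenin-like* and -0.531 against *axin2*, and its nearest named transcripts were *vim-1* (0.94), *Kif3A* (0.925) and *prog2b* (0.917), with 613 transcripts above 0.9. *vim-1* and *prog2b* belong to the epidermal lineage markers used here. *Bcat-1* had 65 transcripts above 0.9, and its nearest named ones were *METTL3* (0.832), *porcnA* (0.829) and *gli-1* (0.821). *APC* was nearest to *LGR4* (0.919), from a handful of reads per library.

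Markers of other cell types moved with some of these groups. A list of 14 transcripts that the study marks as muscle, the tissue that makes most WNT ligands, was taken from its wound-induced genes, so it follows wounding as well as muscle, and 1 of the 14 is *wntless*. Its summed level was 307 to 405 CPM in *control(RNAi)* and 416 to 444 CPM in *yki(RNAi)* intact animals. Of the 14, 5 were called higher and 2 lower there, beside 1.68% and 1.98% of all transcripts. In tails 0 of 14 were called higher after *yki(RNAi)* and 2, 6 and 3 lower at 6, 12 and 24 hpa. Of all transcripts, 3.29%, 9.95% and 2.33% were called lower at these times. The sums in *yki(RNAi)* and *control(RNAi)* were 573 to 647 and 596 to 688 CPM at 6 hpa, 507 to 547 and 613 to 635 CPM at 12 hpa, and 481 ± 7.74 and 502 ± 10.45 CPM (SD, n = 3) at 24 hpa. By this list the muscle sums were not higher in *yki(RNAi)* tails. By other measures and at a later time, days into regeneration, the study counted more BrdU-labelled *collagen*-positive muscle cells after *yki(RNAi)*. It also found *collagen* and *troponin* higher in *yki(RNAi)* tails by qRT-PCR early after injury. For neither experiment does it mention irradiation, which all libraries here received. The part of muscle in the levels of *axin2*, *beta-catenin-like* and *Sp5* was not tested. In the interaction at 12 hpa, where *Sp5* was called lower, 9 of the 14 were called lower too, beside 2.8% of all transcripts.

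Of the 19 epidermal lineage markers, 2 of 19 tested were called higher and 0 lower after *yki(RNAi)* in intact animals, 1 of 19 higher and 4 lower at 6 hpa, 0 of 18 higher and 13 lower at 12 hpa, and 0 of 17 higher and 7 lower at 24 hpa. Of all transcripts, 1.98%, 3.29%, 9.95% and 2.33% were called lower in these states, and 1.68%, 2.25%, 9.57% and 1.35% higher. Their sums at 12 hpa were 1742 to 1809 CPM in *yki(RNAi)* and 2309 to 2580 CPM in *control(RNAi)*. The 5 stem cell markers summed to 464 to 481 CPM after *yki(RNAi)* at 12 hpa, against 447 to 460.3 CPM, with 1 called higher. The stem cell gene *smedwi-1* was at 1.86 to 14.2 CPM in all tails and 3.38 to 10.4 CPM in intact animals. *smedwi-2* was at 216 to 323 and 206 to 347 CPM, and *smedwi-3* at 149 to 213 and 170 to 224 CPM, in the same order. With all times and both RNAi pooled, the ranges of all 5 overlapped between tails and intact animals. Against intact animals of the same RNAi, 0 were called lower at 6 hpa and 1 of 5 at 12 hpa under either RNAi. At 24 hpa 2 of 5 were lower in *control(RNAi)* (median log2 fold change -1.04) and 2 of 4 tested in *yki(RNAi)* (-0.776). Of all transcripts, 2.79% and 2.95% were called lower at 12 hpa and 2.66% and 3.47% at 24 hpa, in the same order. In the step from 12 to 24 hpa in which *Sp5* fell in *control(RNAi)*, 6 of 14 muscle markers were called lower and 0 higher (median log2 fold change -0.29), and 11 of 18 tested epidermal markers lower and 0 higher (median -1.70). Beside them, 4.83% of all transcripts were called lower and 7.05% higher. The part of these cell types in the levels of the 6 genes was not tested.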

How the data were processed

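Raw counts per SmedASXL transcript were deposited by the authors for 2 sequencing lanes of each library, made from single-end, poly(A)-selected reads (base calls by bcl2fastq 1.8.3, alignment by Bowtie2 2.2.4 after removal of 15 bp at the read end). The treatment of reads that fit several similar transcripts is not given in the sources used here, so a gene that has close relatives may share their reads. Fold changes and p-values of the authors' own DESeq2 comparisons are also in the deposited tables and were not used. Sequences were not used here.

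Lanes were compared (chi-square per degree of freedom 0.984 to 1.02 where both were used) and summed. Lane 2 of *yki(RNAi)* intact A has 22 damaged rows and was left out. Counts with no transcript (6.31% to 7.49%) were left out. Totals were 11021767 to 22874666 counts in *control(RNAi)* intact, 12800676 to 22121101 in *yki(RNAi)* intact and 17846014 to 23601139 in tail libraries. The labels call the 3 replicates biological.

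Each comparison was fitted over all transcripts on its own groups with edgeR 4.0.16 in R 4.3.3 (TMM factors, filterByExpr with min.count 10 and min.total.count 15, quasi-likelihood F test, Benjamini-Hochberg adjustment). The SE was obtained from the fold change and its F statistic. The minimum size was 25% between RNAi groups and between times, 2-fold for tails against intact animals, and none for interactions. CPM used TMM factors over all libraries. The method was tested on simulated data. Alternatives were DESeq2 1.42.0, DESeq2 size factors within edgeR, the low-count filter switched off, a joint fit of the 24 libraries, the replicate letter as a block, lane 1 alone, other minimum sizes, CPM without TMM factors and each library left out in turn.

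Members, gene lists and tests were chosen with earlier results of these data known. All 6 members are named in each comparison, with the 3 named transcripts most like each. From each pathway list up to 3 genes are named, those with the largest log2 fold change among the genes called between *yki(RNAi)* and *control(RNAi)* tails.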

Additional observations from a re-analysis of the deposited data

Results flagged for a closer look

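*Sp5* was set apart because its step from intact animals to tails at 12 hpa differed between the RNAi groups by the interaction test, with a log2 difference of -0.65 (SE 0.1801, edgeR adjusted p = 0.0434, 12 libraries). *Sp5* was 3.06-fold higher in tails than in intact animals in *control(RNAi)* and 1.94-fold higher in *yki(RNAi)*, from intact means of 13.0 and 27.9 CPM to tail means of 42.5 and 54.4 CPM. Over the 18 alternatives the adjusted p ran from 0.000109 to 0.115 and the call stood in 7.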

How the results depend on the processing

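No called value changed direction under the alternatives run. Over all comparisons and alternatives, 213 counts of called members stayed within 1.5 times of the reported count, 26 were lower and 5 higher. With the first lane alone, the members called were 1 for *yki(RNAi)* against *control(RNAi)* in intact animals, 2 for *yki(RNAi)* 12 hpa tails against intact, 1 for *yki(RNAi)* 24 hpa tails against intact, 0 for the interaction at 12 hpa and 0 for 12 against 6 hpa in *control(RNAi)* tails. With the smaller minimum of 25% for tails against intact, they were 2 in *control(RNAi)* at 6 hpa, 3 in *yki(RNAi)* at 12 hpa and 5 in *yki(RNAi)* at 24 hpa. DESeq2 called 1 for *yki(RNAi)* 24 hpa tails against intact, and a joint fit of all 24 libraries called 0 in the interaction at 12 hpa; the cause was not tested.

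With each library left out in turn, the members called ranged from 1 to 2 for *yki(RNAi)* against *control(RNAi)* in intact animals. In the same comparison at 6 and 24 hpa, *axin2* alone lost its call, in 3 and 4 of these fits. For tails against intact they ranged from 1 to 2 for *control(RNAi)* at 12 hpa, 1 to 2 for *control(RNAi)* at 24 hpa, 0 to 2 for *yki(RNAi)* at 6 hpa, 1 to 2 for *yki(RNAi)* at 12 hpa and 1 to 2 for *yki(RNAi)* at 24 hpa. They ranged from 0 to 1 for the interaction at 12 hpa, for 12 against 6 hpa in *control(RNAi)* tails and for 24 against 12 hpa in *yki(RNAi)* tails.

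The replicate letters were not used to pair the libraries, since in no comparison did all 3 letters deviate together (correlation over 0.1). Single letters did, up to 0.427 for replicate A between *yki(RNAi)* and *control(RNAi)* intact animals, so this check cannot exclude pairing. The replicate block left all 19 counts within 1.5 times of the reported ones, with 3 members called between *yki(RNAi)* and *control(RNAi)* in each state, and changed none of 111 single-gene calls. CPM without TMM factors moved 12 of 48 group levels by more than their SD. The few reads of *APC*, from 4 to 26 in a library, limit what can be said of it.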
